A study of Mus musculus with 18 samples.

Results

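Collagen genes were followed in E0771 cells, a mouse mammary tumor line used as a model of triple-negative breast cancer, whose RNA was sequenced with or without knockdown of the Mediator kinase Cdk8. Members were all genes whose GENCODE symbol, looked up from the Ensembl identifier in the count files, reads Col, a number, a and a number. This rule, which uses no measured value, found 44 of the 50686 genes listed. Every cell carried a firefly luciferase construct under the CMV promoter and then a retroviral hairpin, and hairpin-bearing cells were sorted on mCherry. The hairpin was a non-targeting control in cntrl cells, CDK8.1593 in shCdk8-1 cells and CDK8.1830 in shCdk8-2 cells. Each line was 1 sorted population, so that a hairpin and the population that carries it cannot be told apart. DMSO as vehicle or 1 µM Senexin B (SnxB), which inhibits CDK8 and CDK19, was given to the 3 lines for 48 h, with 3 libraries in each of the 6 groups and 18 in all. The labels do not say that libraries came from separate cultures, so p-values measure the spread between these libraries, which may be technical.

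Collagens are trimeric proteins of the extracellular matrix. Fibrillar collagens (types I, II, III, V, XI, XXIV and XXVII) build or regulate banded fibrils, type IV forms the sheet of basement membranes, and type VI forms beaded microfilaments close to the cell surface. FACIT collagens such as types IX, XII and XVI sit on the surface of fibrils, type VIII forms hexagonal networks, type VII anchors epithelium to the stroma, type XIII spans the plasma membrane, and type XVIII is a basement membrane proteoglycan whose end fragment is endostatin. Chains assemble in fixed partners, so the balance between the mRNAs of partner chains is of interest. In breast tumors the matrix is made mostly by fibroblasts, and tumor cells add to it.

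The deposited files hold read counts per gene. Libraries held 16452260 to 22664693 counts. Levels within a gene are given as CPM, the share of a library's counts after TMM scaling, and levels of different genes are compared as RPKM, that is CPM per kilobase of exon. Cdk8 mRNA stood at 54.8 to 58.6 CPM in cntrl cells in DMSO, 18.7 to 23.4 CPM in shCdk8-1 and 38.5 to 39.2 CPM in shCdk8-2. Epithelial markers were nearly absent from this mammary line: Krt18, Epcam, Cdh1, Krt19 and Krt7 were under 1 CPM in all 6 groups, and Krt8 passed 1 CPM in the shCdk8 lines only. The 6 epithelial markers summed to 0.325 to 0.49 CPM in cntrl, 8.22 to 9.18 CPM in shCdk8-1 and 12.5 to 14.6 CPM in shCdk8-2, all in DMSO. The 6 mesenchymal markers summed to 4811 to 4981, 4093 to 4267 and 4449 to 4574 CPM in the same order, with Fn1 and Cdh2 under 1 CPM. Of 8 fibroblast markers, Thy1, Lum, Pdpn and Fap were under 1 CPM in each group, while the sum of the list, carried by Pdgfra and Pdgfrb, was 550 to 559 CPM in cntrl, 390 to 437 CPM in shCdk8-1 and 418 to 447 CPM in shCdk8-2. The other markers of that list over 1 CPM in any of these groups, Dpt and Dcn, went against the sum, with Dpt at a mean of 3.35, 8.17 and 10.7 CPM and Dcn at 0.54, 1.82 and 0.814 CPM in the same order. Of 4 endothelial and 5 leukocyte markers, 1 of each list reached 1 CPM in each group. The sums were 4.95 to 15.4 CPM for endothelial and 1.37 to 3.57 CPM for leukocyte markers in DMSO, and Pecam1 was the endothelial marker over 1 CPM in the shCdk8 lines and Cdh5 in cntrl. The part of these marker differences in the collagen results was not tested. In a bulk sample, fewer cells of a type and less RNA per cell cannot be told apart.

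After removal of genes with low counts, 23 of the 44 collagen genes were tested, among 12772 genes. Of these 23, 17 reached the filter's level of 0.526 CPM in each cntrl library in DMSO. The other 6, Col1a1, Col1a2, Col5a2, Col11a2, Col12a1 and Col13a1, did not and were kept through other groups, where they were higher. A rise was therefore built into their selection. Among the 17, Col8a1 was at most 0.384 CPM in the shCdk8 libraries in DMSO and 0.228 CPM in SnxB. It was kept through the cntrl groups, where it was higher, so a fall was built into its selection. The counts below are no support for a direction of the family. The 21 members not tested had at most 18 counts in any library. Col4a3, Col10a1 and Col19a1 had 0 counts in all 18 libraries, Col4a5, Col4a6 and Col26a1 had 1 to 5 counts over all libraries together, and the remaining 15 had more than 5. The count of 18 was that of Col22a1 in the first cntrl library in SnxB. Summed over libraries in DMSO, Col17a1 had 34 counts in cntrl, 17 in shCdk8-1 and 25 in shCdk8-2, and Col22a1 had 14, 2 and 12. A library with 0 counts of a gene allows up to 3 counts, that is 0.132 to 0.182 CPM at these depths.

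For 4 genes called in both shCdk8 lines, the 250 bases before the annotated start are shown, from the RefSeq promoter table of GRCm38.p6, on the strand of the gene and with no annotated exon in the window. Col9a1 (chr1:24177360-24177609, plus strand) and Col13a1 (chr10:61979109-61979358, minus strand) are given as genes that rose in both shCdk8 lines. Col24a1 (chr3:145292222-145292471, plus strand) and Col8a1 (chr16:57754738-57754987, minus strand) are given as genes that fell. Capitals mark matches, on either strand, to any of 3 short promoter motifs. The first is TATAAA, where the general transcription machinery can bind. The second is CCAAT, known as a site of nuclear factor Y. The third is GGGCGG, known as a site of Sp1 and its relatives.
Col9a1: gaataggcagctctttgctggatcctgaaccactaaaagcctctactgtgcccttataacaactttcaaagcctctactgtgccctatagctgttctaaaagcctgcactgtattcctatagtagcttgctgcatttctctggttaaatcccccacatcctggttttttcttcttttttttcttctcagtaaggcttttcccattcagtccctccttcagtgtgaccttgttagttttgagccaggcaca
Col13a1: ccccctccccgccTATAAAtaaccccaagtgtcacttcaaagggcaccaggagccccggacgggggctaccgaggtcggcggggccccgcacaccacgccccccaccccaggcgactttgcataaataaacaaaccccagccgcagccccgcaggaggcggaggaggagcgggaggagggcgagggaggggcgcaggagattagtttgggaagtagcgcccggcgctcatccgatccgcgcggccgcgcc
Col24a1: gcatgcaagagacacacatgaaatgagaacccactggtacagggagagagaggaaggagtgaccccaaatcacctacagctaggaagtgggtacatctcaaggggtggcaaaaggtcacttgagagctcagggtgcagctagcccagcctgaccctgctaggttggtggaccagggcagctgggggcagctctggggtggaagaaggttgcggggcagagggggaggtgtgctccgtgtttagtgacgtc
Col8a1: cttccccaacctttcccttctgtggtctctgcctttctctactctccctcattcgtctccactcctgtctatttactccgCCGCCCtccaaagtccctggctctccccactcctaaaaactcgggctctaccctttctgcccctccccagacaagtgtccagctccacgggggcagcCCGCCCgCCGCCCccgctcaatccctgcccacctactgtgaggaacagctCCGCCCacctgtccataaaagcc
Col9a1 and Col24a1 hold none of the 3 motifs in this window. The table gives Col9a1 a further start, whose window (chr1:24194953-24195202, not shown, since an annotated exon lies in it) holds CCAAT 18 bases before that start. Col13a1 holds TATAAA 237 bases before its start, and Col8a1 holds GGGCGG at 4 places, all on the opposite strand. Over all 32851 promoters of the table, 12.4% hold TATAAA, 33.8% CCAAT and 32.7% GGGCGG in the same window. Promoters of 35 of the 44 members are in the table, with 38 starts. TATAAA was found before 5 of these starts, CCAAT before 13 and GGGCGG before 22. The matches are letters in a window and were not tested for any role.

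In cntrl cells in DMSO a few genes held most of the collagen mRNA. The summed level of all 44 genes was 956 ± 12.2 RPKM (SD, n = 3). Col6a1 was highest, with 22.6% of that sum, followed by Col3a1 (21.2%), Col4a1 (20.8%) and Col4a2 (10.3%). These 4 genes made up 74.9 ± 0.336% (SD, n = 3), and with Col5a1 (7.61%) and Col18a1 (5.1%) the top 6 made up 87.6 ± 0.253%. The shares of Col3a1 (SD 0.11) and Col4a1 (SD 0.466) differed by less than their spread. The mRNAs of type I collagen, the main collagen of connective tissue, were close to absent: Col1a1 had 0.0124% of the sum, and Col1a2 had 2 counts over the 3 cntrl libraries. The fibrillar class held 33.1 ± 0.339% of the sum (SD, n = 3), mainly through Col3a1, Col5a1 and Col5a3.

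The make-up differed in the shCdk8 lines more than the total did. The summed level was 1006 ± 38.8 RPKM in shCdk8-1 and 891 ± 24.1 RPKM in shCdk8-2 (SD, n = 3 each). Type VI genes went from 27.3 ± 0.162% of the sum in cntrl to 42.3 ± 0.555% in shCdk8-1 and 36.2 ± 0.188% in shCdk8-2. Type IV genes went from 31.1 ± 0.35% to 20.1 ± 0.7% and 21.6 ± 0.148%. The FACIT class went from 2.84 ± 0.064% to 7.06 ± 0.319% and 4.82 ± 0.0553%. Col9a1 alone went from rank 16, with 0.037% of the sum, to rank 7 with 4.07% in shCdk8-1 and rank 10 with 1.67% in shCdk8-2.

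**Figure D1:**
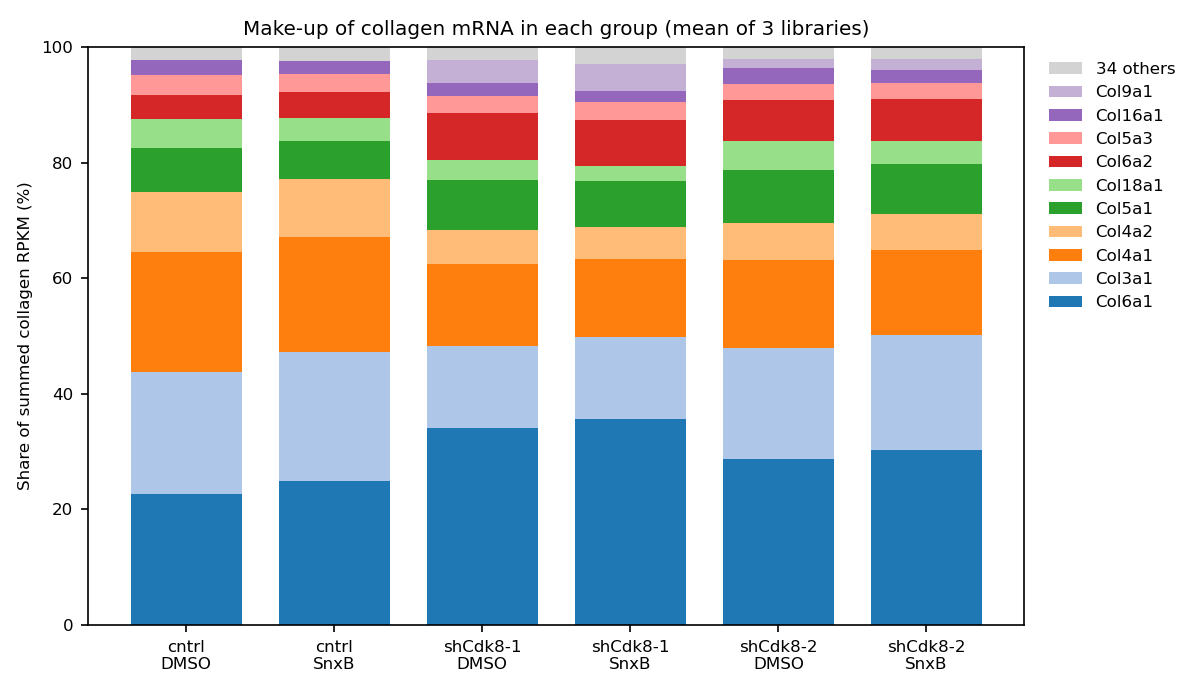
Stacked bars show, for each of the 6 groups, the mean share (in %, over 3 libraries) of each collagen gene in the summed collagen level in RPKM. Col6a1 is the largest block in every group, at 22.6% in cntrl and 34% in shCdk8-1 in DMSO, and the Col4a1 and Col4a2 blocks together are smaller in the shCdk8 lines.

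With shCdk8-1, 9 collagen genes were upregulated and 4 downregulated in DMSO at an adjusted p under 0.05 and over 2-fold. Across all genes tested these shares were 5.37% up and 7.14% down. With shCdk8-2, 7 were upregulated and 4 downregulated, against 5.07% and 5.95% of all genes. At the adjusted p alone, 12 rose and 9 fell with shCdk8-1, where 30.1% of all genes rose and 29.5% fell. For shCdk8-2 the counts were 10 and 9, beside 29% and 28.1% of all genes. The median log2 fold change over the 23 members was 0.26 with shCdk8-1 and 0.15 with shCdk8-2, and over all genes tested it was 0.006 and 0.013. These medians include the 6 members kept through groups where they were higher, and Col8a1, kept through the cntrl groups. They are therefore no support for a direction of the family. The 7 genes upregulated by both hairpins were Col1a1, Col1a2, Col5a2, Col9a1, Col9a3, Col12a1 and Col13a1. The 4 downregulated by both were Col2a1, Col6a3, Col8a1 and Col24a1. Both comparisons use the same cntrl libraries, so they are not independent of each other.

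**Figure D2:**
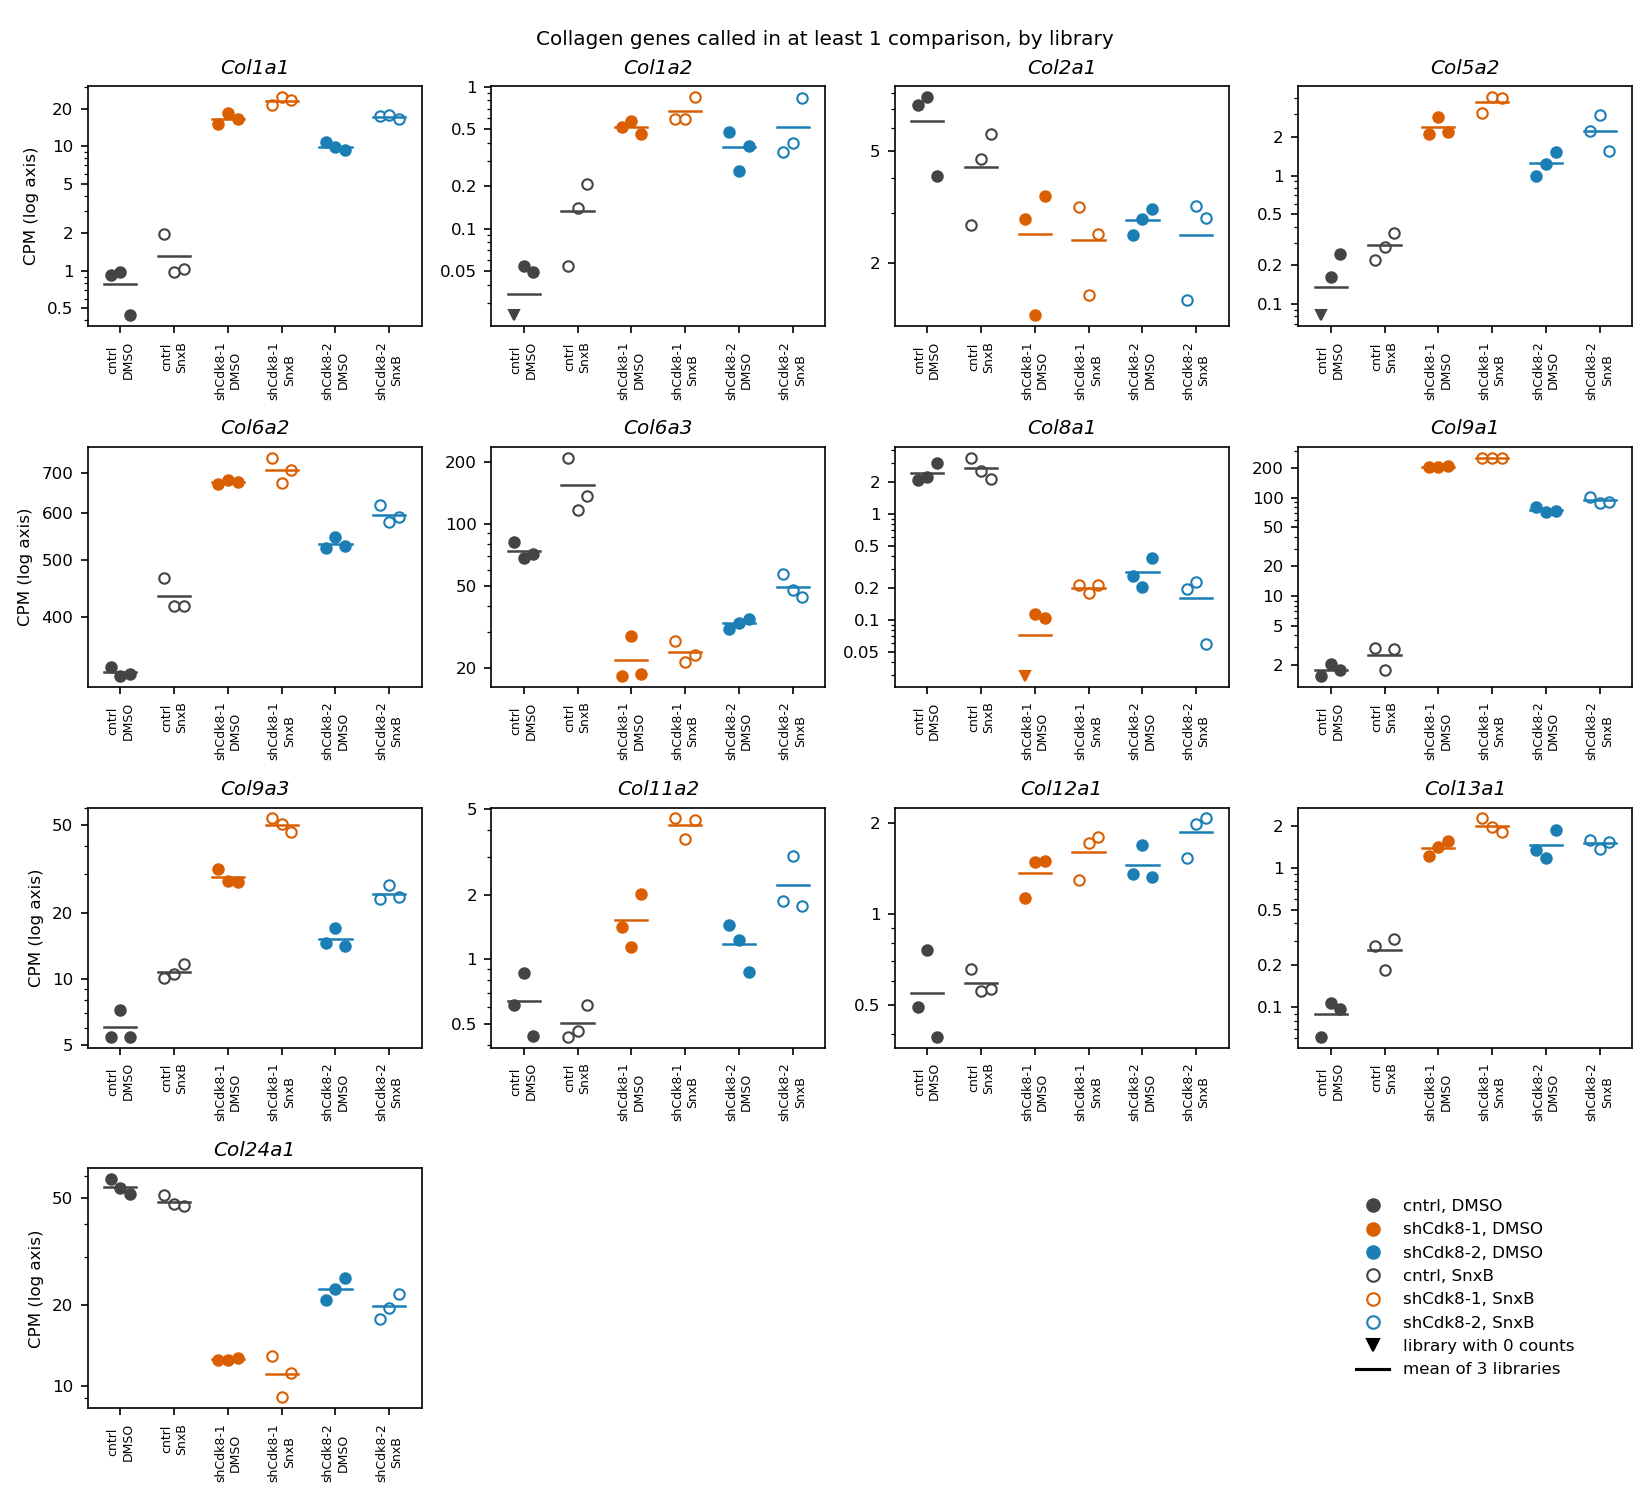
Each panel plots one collagen gene called in at least 1 comparison, with CPM on a log axis for the 6 groups. Points are libraries (filled, DMSO; open, SnxB), lines are means of 3 and triangles mark libraries with 0 counts. Col9a1 lies between 1.54 and 2.95 CPM in the 6 cntrl libraries and at 72.4 CPM or more in each shCdk8 library.

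Among the FACIT genes tested, Col9a1, a chain of the cartilage collagen type IX that decorates type II fibrils, had the largest fitted fold change with both hairpins. Col9a1 (ENSMUSG00000026147.16, chr1:24177610-24252684, plus strand) stood at 1.54, 2.06 and 1.76 CPM in the cntrl libraries in DMSO, at 206, 208 and 209 CPM in shCdk8-1 and at 80.3, 72.4 and 73.5 CPM in shCdk8-2. The 3 lines did not overlap. Its log2 fold change was 6.85 ± 0.102 (SE) with shCdk8-1 and 5.39 ± 0.108 with shCdk8-2 (adjusted p = 7.23e-21 and 1.25e-18 from edgeR's quasi-likelihood test), that is 115-fold and 41.9-fold. Col9a3, a partner chain, stood at 5.48, 7.26 and 5.49 CPM in cntrl, 31.5, 28 and 27.7 CPM in shCdk8-1 and 14.6, 17.1 and 14.1 CPM in shCdk8-2. It was higher in every shCdk8 library, by 4.78-fold with shCdk8-1 and 2.51-fold with shCdk8-2 (adjusted p = 3.95e-13 and 5.74e-09). Col9a2, the chain that completes the trimer, was not tested: it had 3 counts over the cntrl libraries in DMSO, 12 in shCdk8-1 and 11 in shCdk8-2. Per kilobase, Col9a3 was 4.47 ± 0.329 times Col9a1 in cntrl, 0.185 ± 0.0148 times in shCdk8-1 and 0.267 ± 0.0375 times in shCdk8-2 (SD, n = 3 each). Col19a1, whose gene ends 9.21 kb beyond Col9a1 on the opposite strand, had 0 counts in all libraries.

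The other FACIT genes tested were Col12a1 and Col16a1. Col12a1, whose product links fibrils to other matrix components, was low, at 0.493, 0.759 and 0.392 CPM in cntrl, 1.13, 1.48 and 1.5 CPM in shCdk8-1 and 1.35, 1.69 and 1.32 CPM in shCdk8-2. Every shCdk8 library lay above every cntrl library, with a 2.48-fold rise with shCdk8-1 and 2.64-fold with shCdk8-2 (adjusted p = 0.000262 and 0.000119). Col16a1 differed little: it fell by 0.17 on the log2 scale with shCdk8-1 (adjusted p = 0.00281), and with shCdk8-2 the log2 fold change was -0.07 (adjusted p = 0.189).

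Type I collagen, the fibrillar collagen of bone, skin and tendon, rose from a low level. Col1a1 (ENSMUSG00000001506.10, chr11:94936224-94953042, plus strand) stood at 0.924, 0.976 and 0.441 CPM in cntrl, 15.1, 18.4 and 16.4 CPM in shCdk8-1 and 10.7, 9.8 and 9.26 CPM in shCdk8-2. The groups did not overlap. The rise was 21.5-fold with shCdk8-1 (log2 fold change 4.43 ± 0.191 SE, adjusted p = 6.7e-14) and 12.9-fold with shCdk8-2 (3.69 ± 0.206, adjusted p = 6.35e-12). Its partner Col1a2 stayed low even where it was detected, with 2 counts over the cntrl libraries, 30 over shCdk8-1 and 23 over shCdk8-2. Ratios of the summed counts were 14.2 (95% exact interval 3.6 to 123) and 10.4 (2.57 to 91.2), intervals that cover counting error only; the adjusted p was 7.8e-05 and 0.000637. Even in shCdk8-1, Col1a1 reached 0.0177 ± 0.00121 of the Col3a1 level per kilobase.

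Col3a1, which forms fibrils in elastic tissues, and Col5a2, which helps to start fibrils, are neighbors on chromosome 1, with ends 24.6 kb apart, and moved in opposite directions. Col3a1 stood at 2023, 1957 and 1981 CPM in cntrl, 1376, 1455 and 1385 CPM in shCdk8-1 and 1658, 1746 and 1665 CPM in shCdk8-2. It was lower in each shCdk8 library, by 0.50 ± 0.0424 (SE) on the log2 scale with shCdk8-1 and by 0.23 ± 0.0423 with shCdk8-2 (adjusted p = 2.97e-09 and 8.43e-05). Col5a2 had 8 counts over the cntrl libraries, 137 over shCdk8-1 and 75 over shCdk8-2, at 0 to 0.245, 2.11 to 2.85 and 1 to 1.53 CPM. The ratios of summed counts to cntrl were 16.2 (95% exact interval 8 to 38.3) and 8.49 (4.1 to 20.4), with adjusted p = 8.35e-08 and 1.92e-05. The 8 cntrl counts lay as 0, 3 and 5 in the libraries, and without the third cntrl library the fitted log2 fold change of Col5a2 went from 3.97 to 4.67 with shCdk8-1 and from 3.04 to 3.74 with shCdk8-2.

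The chains that pair with Col5a2 behaved differently. Col5a1, the chain present in most type V trimers, stood at 639, 607 and 607 CPM in cntrl, 685, 814 and 726 CPM in shCdk8-1 and 681, 701 and 668 CPM in shCdk8-2. It rose by 0.26 ± 0.0682 (SE) on the log2 scale with shCdk8-1 (adjusted p = 0.0023). With shCdk8-2 the log2 difference was 0.15, and it did not pass the test (adjusted p = 0.0745). Col5a3 fell by 0.43 on the log2 scale with shCdk8-2 (adjusted p = 1.78e-05), and its log2 difference of -0.13 with shCdk8-1 did not pass (adjusted p = 0.0963). Per kilobase, Col5a3 was 0.452 ± 0.00866 of Col5a1 in cntrl, 0.345 ± 0.0235 in shCdk8-1 and 0.304 ± 0.0108 in shCdk8-2 (SD, n = 3 each).

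Type II, XI, XXIV and XXVII genes, expressed mainly in cartilage and developing bone, were divided. Col24a1 (ENSMUSG00000028197.4, chr3:145292472-145552011, plus strand) stood at 58.6, 54.1 and 51.6 CPM in cntrl, 12.5, 12.5 and 12.7 CPM in shCdk8-1 and 20.9, 22.9 and 25.1 CPM in shCdk8-2. The 3 lines were apart from one another, and the gene was 4.35-fold lower with shCdk8-1 and 2.39-fold lower with shCdk8-2 (adjusted p = 1.23e-13 and 1.98e-10). The 33 other tested genes within 5 Mb had median log2 fold changes of -0.46 with shCdk8-1 and -0.23 with shCdk8-2, below those of all genes, and their part in the fall of Col24a1 was not tested. Col2a1, the main chain of cartilage collagen, stood at 7.27, 7.75 and 4.07 CPM in cntrl, 2.87, 1.31 and 3.46 CPM in shCdk8-1 and 2.52, 2.86 and 3.12 CPM in shCdk8-2. Its lowest cntrl library lay just above the highest shCdk8 library, and it was 2.43-fold and 2.23-fold lower (adjusted p = 0.00152 and 0.00313). Col11a2, a chain of cartilage type XI, rose from 0.616, 0.867 and 0.441 CPM to 1.41, 1.14 and 2.01 CPM with shCdk8-1 (2.39-fold, adjusted p = 0.00194) and to 1.44, 1.23 and 0.877 CPM with shCdk8-2 (1.87-fold, adjusted p = 0.0252). In shCdk8-2 its lowest library was barely above the highest cntrl library, and the call at the adjusted p was lost in 4 of 6 fits that left out 1 library. Col27a1 stood at 0.542 to 0.637 CPM in cntrl, 0.47 to 0.57 CPM in shCdk8-1 and 0.664 to 0.827 CPM in shCdk8-2. Its log2 difference with shCdk8-1 was -0.21 (95% interval -0.73 to 0.31, adjusted p = 0.625), and with shCdk8-2 it was 0.30 (-0.18 to 0.78, adjusted p = 0.442).

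Type VI collagen is a trimer of α1, α2 and a long α3 chain. The α1 and α2 genes rose, while the α3 gene fell. Col6a1 (chr10:76708792-76726168, minus strand) stood at 961, 932 and 945 CPM in cntrl, 1468, 1547 and 1478 CPM in shCdk8-1 and 1115, 1152 and 1098 CPM in shCdk8-2. It was 1.58-fold and 1.19-fold higher (adjusted p = 2.9e-10 and 0.000201). Col6a2, 85.2 kb from Col6a1 on the same strand, went from 329, 318 and 321 CPM to 670, 682 and 677 CPM with shCdk8-1 and to 523, 545 and 527 CPM with shCdk8-2. Every shCdk8 library exceeded every cntrl library for both genes, and the rise of Col6a2 was 2.1-fold and 1.65-fold (adjusted p = 4.27e-14 and 2.92e-11).

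Col6a3 (ENSMUSG00000048126.16, chr1:90765923-90843971, minus strand) stood at 81.9, 68.1 and 71.4 CPM in cntrl, 18.3, 28.5 and 18.7 CPM in shCdk8-1 and 31.1, 33 and 34.7 CPM in shCdk8-2. All shCdk8 libraries were below all cntrl libraries. The log2 fold change was -1.77 ± 0.188 (SE) with shCdk8-1 and -1.16 ± 0.178 with shCdk8-2 (adjusted p = 8.1e-08 and 1.2e-05), that is 3.4-fold and 2.24-fold lower. Per kilobase, Col6a3 was 0.0285 ± 0.00237 of Col6a1 in cntrl, 0.00532 ± 0.00124 in shCdk8-1 and 0.0108 ± 0.00072 in shCdk8-2, while Col6a2 was 0.179 ± 0.000884, 0.238 ± 0.00507 and 0.249 ± 0.00292 of Col6a1 (SD, n = 3 each). The genes for the other long chains, Col6a4, Col6a5 and Col6a6, which lie side by side on chromosome 9, had at most 11 counts in any library.

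Type IV collagen genes fell together. Col4a1 and Col4a2, the common chains of basement membranes, are transcribed away from each other on chromosome 8, and their annotated spans overlap at the starts (Col4a1 chr8:11198423-11312826, minus strand; Col4a2 chr8:11312805-11449287, plus strand). Col4a1 stood at 1471, 1473 and 1509 CPM in cntrl, 1009, 1157 and 1047 CPM in shCdk8-1 and 995, 1046 and 992 CPM in shCdk8-2. Col4a2 stood at 666, 655 and 633 CPM, 365, 426 and 387 CPM, and 365, 392 and 380 CPM in the same order. The shCdk8 libraries lay below the cntrl libraries for both genes and overlapped between the hairpins. Col4a1 fell by 0.47 and 0.55 on the log2 scale (adjusted p = 7.72e-07 and 9.99e-08), and Col4a2 fell by 0.73 and 0.78 (adjusted p = 3.8e-09 and 1.84e-09). The 36 other tested genes within 5 Mb had median log2 fold changes of -0.37 with shCdk8-1 and -0.41 with shCdk8-2, and their part in the fall of these genes was not tested. Col4a2 was 0.495 ± 0.0194 of Col4a1 per kilobase in cntrl, 0.413 ± 0.00483 in shCdk8-1 and 0.423 ± 0.00854 in shCdk8-2. The chains of specialized basement membranes, Col4a3 to Col4a6, had at most 9 counts in any library.

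The remaining classes held 1 tested gene each. Col8a1, a chain of the network beneath endothelium, had 137 counts over the cntrl libraries (2.09, 2.22 and 3.04 CPM), 4 over shCdk8-1 (0 to 0.114 CPM) and 17 over shCdk8-2 (0.204 to 0.384 CPM). It was lower in all shCdk8 libraries, by a ratio of summed counts of 36.2 with shCdk8-1 (95% exact interval 13.8 to 135, adjusted p = 3.48e-09) and 8.67-fold with shCdk8-2 (adjusted p = 7.07e-08). The filter kept Col8a1 through the cntrl groups alone, so a fall was built into its selection. Without the first shCdk8-1 library, its fitted log2 fold change with shCdk8-1 went from -5.04 to -4.43. The 25 other tested genes within 5 Mb had median log2 fold changes of 0.53 with shCdk8-1 and 0.43 with shCdk8-2. Their part in the values of Col8a1 was not tested. Col13a1, the transmembrane collagen found at neuromuscular junctions, had 5 counts over the cntrl libraries, 81 over shCdk8-1 (1.22, 1.42 and 1.55 CPM) and 88 over shCdk8-2 (1.35, 1.17 and 1.86 CPM). Ratios of summed counts were 15.3 (6.31 to 48.5) and 15.9 (6.58 to 50.3), with adjusted p = 1.37e-08 and 1.15e-08.

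Col7a1, the anchoring fibril gene, rose with shCdk8-1 alone, from 38.5 to 49.8 CPM in cntrl to 67.7 to 74 CPM (1.62-fold, adjusted p = 2.86e-06). With shCdk8-2 its range was 47.1 to 50 CPM, which overlapped cntrl (adjusted p = 0.233), and the hairpins differed from each other for this gene (log2 difference -0.55, adjusted p = 0.000238). Col18a1 stood at 342, 342 and 341 CPM in cntrl, 236, 242 and 237 CPM in shCdk8-1 and 308, 328 and 309 CPM in shCdk8-2. It fell by 0.52 on the log2 scale with shCdk8-1 (adjusted p = 1.25e-09) and by 0.12 with shCdk8-2 (adjusted p = 0.022), where the call was lost without the first or the third shCdk8-2 library. Col15a1, the other multiplexin gene, had at most 5 counts in any library.

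**Figure D3:**
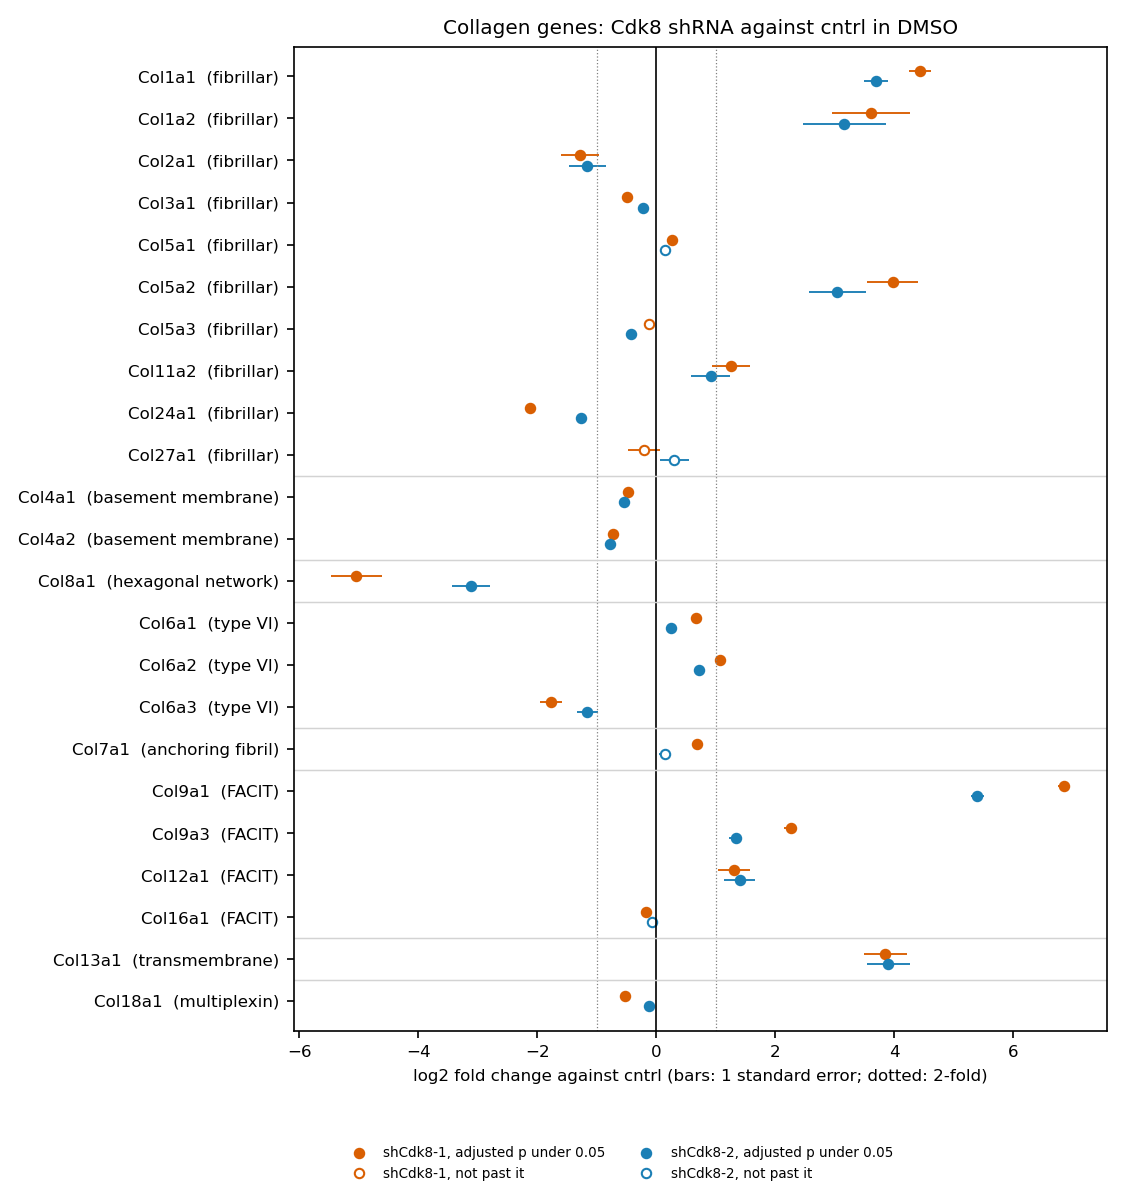
Points give the log2 fold change of each of the 23 tested collagen genes against cntrl in DMSO for shCdk8-1 and shCdk8-2, by class, with bars of 1 standard error and dotted lines at 2-fold. Filled points have an adjusted p under 0.05. Col9a1 lies furthest to the right, at 6.85 and 5.39, and Col8a1 furthest to the left.

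The shCdk8 lines were also compared with each other, since shCdk8-2 cells kept more Cdk8 mRNA. At the adjusted p alone, 4 collagen genes were higher and 8 lower in shCdk8-2 than in shCdk8-1, against 11.2% and 9.91% of all genes. The 4 higher genes, Col3a1, Col6a3, Col18a1 and Col24a1, were all among those that fell with shCdk8-1. The 8 lower were Col1a1, Col5a2, Col5a3, Col6a1, Col6a2, Col7a1, Col9a1 and Col9a3. All of these but Col5a3 rose with shCdk8-1 at the adjusted p. Against cntrl, Col5a3 had a log2 fold change of -0.13 with shCdk8-1, which did not pass, and -0.43 with shCdk8-2. A link of these differences to the level of Cdk8 was not tested. Past the adjusted p and over 2-fold, 1 gene differed, Col9a1, with a log2 difference of -1.46 ± 0.0608 (SE, adjusted p = 2.05e-12). The share of all genes past both thresholds is not given here, so this count is not read as a result about the family. Col9a3 differed by -0.93 (adjusted p = 4.7e-07) and Col24a1 by 0.86 (adjusted p = 3.14e-06). For Col12a1 the log2 difference was 0.09 (95% interval -0.33 to 0.51) and for Col13a1 0.06 (-0.33 to 0.44), and neither passed the test. Col8a1, with 17 counts in shCdk8-2 and 4 in shCdk8-1 and no overlap between them, gave a ratio of summed counts of 4.07 (95% exact interval 1.33 to 16.6) and did not pass (adjusted p = 0.0555). The call of Col6a3 (0.60, adjusted p = 0.0355) was lost in 5 of 6 fits that left out 1 library. Without the first shCdk8-1 library, 3 genes in place of 1 differed by over 2-fold, and without the second or the third shCdk8-2 library 2 did. Because these values share the shCdk8-1 libraries with the comparison to cntrl, the order of the lines is described and is not independent evidence.

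The lines were compared again in SnxB, in other libraries of the same 3 sorted populations. All 18 libraries shared the filter and the estimate of the spread, so this is not an independent repeat. The filter kept Col1a1, Col1a2, Col5a2, Col11a2, Col12a1 and Col13a1 through groups where they were higher. Their rise in SnxB is therefore no separate support. Col8a1 was kept through the cntrl groups alone, so its fall in SnxB is no separate support either. With shCdk8-1, 8 collagen genes were higher and 3 lower than in cntrl at over 2-fold (5.75% and 7.06% of all genes), and with shCdk8-2 the counts were again 8 and 3 (5.04% and 5.75% of all genes). Col1a1, Col1a2, Col5a2, Col9a1, Col9a3, Col12a1 and Col13a1 were upregulated and Col6a3, Col8a1 and Col24a1 downregulated by both hairpins in DMSO and in SnxB. Col9a1 stood at 2.95, 1.76 and 2.87 CPM in cntrl cells in SnxB, 256, 253 and 255 CPM in shCdk8-1 and 103, 88.6 and 90.4 CPM in shCdk8-2. The lines did not overlap, and differed by 102-fold and 37.6-fold (adjusted p = 3.1e-21 and 4.55e-19). Col11a2 joined the upregulated genes in both lines, at 0.437, 0.464 and 0.615 CPM in cntrl, 4.52, 3.63 and 4.44 CPM in shCdk8-1 and 1.87, 3.02 and 1.77 CPM in shCdk8-2, that is 8.23-fold and 4.33-fold (adjusted p = 7e-09 and 6.73e-06). Col2a1 still passed the adjusted p in SnxB but was under 2-fold, at 1.81-fold lower with shCdk8-1 and 1.78-fold lower with shCdk8-2 (adjusted p = 0.0356 and 0.0415). Its shCdk8 libraries overlapped those of cntrl, and each call was lost in 4 of 6 fits that left out 1 library. The log2 fold change of Col6a2 in SnxB was 0.71 with shCdk8-1 and 0.46 with shCdk8-2 (adjusted p = 2.59e-11 and 2.5e-08). For Col6a1 it was 0.35 with shCdk8-1 (adjusted p = 2.61e-06) and 0.00 with shCdk8-2 (95% interval -0.09 to 0.10).

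Of 20 genes for the modification, folding and export of procollagen 19 were tested, and at the adjusted p 3 rose and 12 fell with shCdk8-1 and 2 rose and 12 fell with shCdk8-2. Of all genes tested, 30.1% rose and 29.5% fell with shCdk8-1, and 29% and 28.1% with shCdk8-2. Over 2-fold, shCdk8-1 lowered P4ha3, a subunit of the prolyl 4-hydroxylase that stabilizes the triple helix, and P3h3, a partner of lysyl hydroxylase. Their levels went from 2.71 ± 0.247 to 1.11 ± 0.528 CPM and from 45.9 ± 0.803 to 21.9 ± 0.494 CPM (SD, n = 3, adjusted p = 0.000134 and 1.06e-12). Fkbp14, a collagen folding isomerase, fell from 14 ± 0.912 CPM in cntrl to 8.01 ± 0.525 CPM in shCdk8-1 and 4.41 ± 0.485 CPM in shCdk8-2 cells, where it was 3.18-fold lower (adjusted p = 3.66e-11). The lysyl hydroxylase gene Plod1 fell by 0.88 and 0.66 on the log2 scale, and Serpinh1, the collagen chaperone HSP47, fell by 0.47 and 0.31 (highest adjusted p = 4.62e-07). Crtap, part of the prolyl 3-hydroxylase complex, rose by 0.44 and 0.50 (adjusted p = 1.38e-07 and 3.21e-08).

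Among the crosslinking enzymes, which oxidize lysines of collagen and elastin, Loxl2 had 7, 6 and 12 counts in the cntrl libraries in DMSO, 1438, 1185 and 1265 in shCdk8-1 and 1439, 1177 and 1086 in shCdk8-2. It was 145-fold and 132-fold higher (log2 fold changes 7.18 ± 0.096 and 7.05 ± 0.097 SE, adjusted p = 1.31e-21 and 3.49e-21). Its cntrl libraries in DMSO lay at 0.325 to 0.588 CPM, and not all reached the filter's level of 0.526 CPM. Loxl2 was kept through other groups, where it was higher, so a rise was built into its selection. Of 5 lysyl oxidase family genes 3 were tested: Loxl3 rose 2.05-fold and 2.84-fold, and Loxl4 fell by 0.71 and 0.30 on the log2 scale (highest adjusted p over both genes = 3.66e-05). Of 8 procollagen processing genes 5 were tested, of which 2 rose and 2 fell at the adjusted p with each hairpin, beside 30.1% and 29.5% of all genes with shCdk8-1 and 29% and 28.1% with shCdk8-2. Pcolce2, an enhancer of procollagen C-proteinase, rose 3.29-fold and 2.49-fold (adjusted p = 2.1e-13 and 2.71e-11), and Adamts3, a procollagen N-proteinase, was 2.32-fold and 2.43-fold lower (adjusted p = 0.00357 and 0.00249).

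Of 10 genes for receptors and uptake 5 were tested, and 2 rose and 3 fell with each hairpin, beside 30.1% and 29.5% of all genes with shCdk8-1 and 29% and 28.1% with shCdk8-2. The receptor kinase Ddr1, which binds collagen, rose from 47.4 ± 1.24 CPM in cntrl to 107 ± 4.74 CPM in shCdk8-1 and 103 ± 7.89 CPM in shCdk8-2 cells (SD, n = 3, adjusted p = 9.58e-14 and 2.9e-13), while its relative Ddr2 fell by 0.24 and 0.33 on the log2 scale. Itga1, the α1 subunit of a collagen-binding integrin, fell from 104 ± 1.97 CPM to 51 ± 6.09 and 50.6 ± 0.648 CPM (adjusted p = 2.19e-09 and 2.46e-09). Itga10, the subunit of another, rose 2.38-fold with shCdk8-2 (adjusted p = 4.87e-05) and 1.64-fold with shCdk8-1, where the libraries overlapped those of cntrl. Over the 32 pathway genes tested, out of 43, the median log2 fold change was -0.13 with shCdk8-1 and -0.15 with shCdk8-2.

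**Figure D4:**
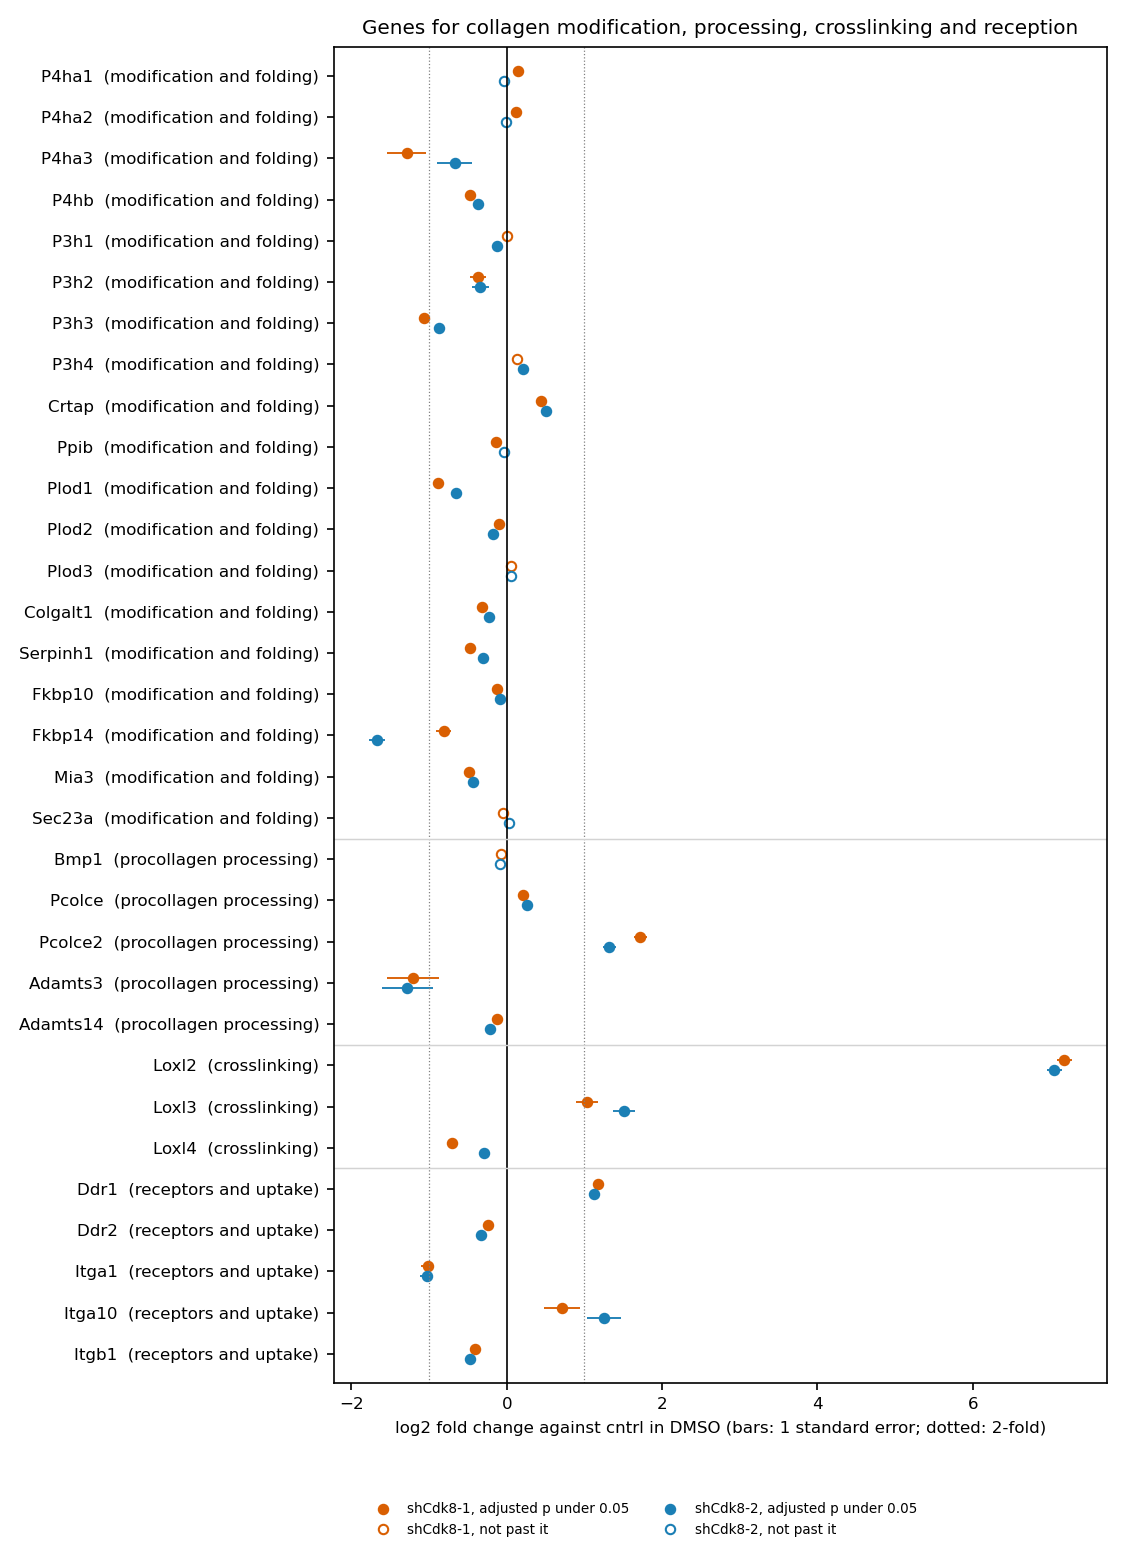
Points give the log2 fold change of 32 genes that modify, process, crosslink or bind collagen, against cntrl in DMSO for shCdk8-1 and shCdk8-2, with bars of 1 standard error and dotted lines at 2-fold. Loxl2 stands apart at 7.18 and 7.05, and most genes of the first group lie slightly left of 0. The filter kept Loxl2 through groups other than cntrl in DMSO.

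SnxB raised several abundant collagen genes in cntrl cells. At the adjusted p alone 7 collagen genes were higher in SnxB than in DMSO, against 3.41% of all genes, and 0 were lower, against 2.14% of all genes. In either direction, 13 of the 23 had an unadjusted p under 0.05 in edgeR. The share of all genes at that unadjusted threshold is not given here. The 7 were Col3a1, Col4a1, Col4a2, Col6a1, Col6a2, Col6a3 and Col9a3. Over 2-fold, the count was 1, Col6a3, where 0.219% of all genes rose by that much. The median log2 fold change was 0.24 over the 23 members and 0.006 over all genes tested. The summed collagen level was 1183 ± 87.6 RPKM in SnxB and 956 ± 12.2 RPKM in DMSO (SD, n = 3 each), with 1130 to 1285 RPKM in the SnxB libraries, all above the 947 to 970 RPKM of the DMSO libraries.

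The 3 chains of type VI collagen rose together in cntrl cells. Col6a1 stood at 1400, 1239 and 1252 CPM in SnxB, above each DMSO library, with a log2 fold change of 0.46 ± 0.0483 (SE, adjusted p = 5.39e-06). Col6a2 stood at 466, 417 and 418 CPM (0.43 ± 0.0444, adjusted p = 4.33e-06). Col6a3 stood at 210, 117 and 137 CPM, also above each DMSO library, with a log2 fold change of 1.07 ± 0.162 (adjusted p = 0.000287). The first of these libraries was the highest of its group for 15 of the 23 members. Without it, the log2 fold change of Col6a3 was 0.79 and the gene was under 2-fold, and 5 members in place of 7 passed the adjusted p, as Col4a1 and Col4a2 no longer did.

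Col3a1 stood at 2775, 2524 and 2473 CPM in cntrl cells in SnxB, above all DMSO libraries (log2 fold change 0.38 ± 0.0423, adjusted p = 8.49e-06). Col4a1 stood at 1923, 1668 and 1686 CPM and Col4a2 at 853, 736 and 753 CPM, with log2 fold changes of 0.24 and 0.26 (adjusted p = 0.0152 and 0.0151). Each of these calls was lost in 3 of 6 fits that left out 1 library. Col9a3 stood at 10.1, 10.6 and 11.7 CPM in SnxB, clear of its 5.48 to 7.26 CPM in DMSO, and rose 1.77-fold (adjusted p = 0.000208). Col5a1 and Col18a1, also among the 6 highest genes, gave log2 differences of 0.09 and -0.03 in cntrl cells (adjusted p = 0.552 and 0.827).

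The sum of the 8 fibroblast markers was also higher in cntrl cells in SnxB, at 638 to 736 CPM against 550 to 559 CPM, and that of the mesenchymal markers lower, at 4523 to 4701 CPM against 4811 to 4981 CPM. The mesenchymal list was divided: Vim, which carried the sum, had a mean of 4152 CPM in SnxB and 4431 CPM in DMSO and S100a4 of 211 and 225 CPM, while Zeb1 was higher in SnxB (217 and 191 CPM), as was Twist1 (57.6 and 49.2 CPM). The part of these differences in the collagen values was not tested. Of the 32 pathway genes, 7 rose and 2 fell at the adjusted p, where 3.41% of all genes rose and 2.14% fell. Among them P4ha2, a prolyl 4-hydroxylase subunit, rose by 0.34 on the log2 scale (adjusted p = 4.33e-06), P3h2, a prolyl 3-hydroxylase, by 0.77 (adjusted p = 3.08e-05) and Plod2, a lysyl hydroxylase, by 0.28 (adjusted p = 0.000116). Fkbp14 and Pcolce fell by 0.33 and 0.14 (adjusted p = 0.0356 and 0.0372).

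In shCdk8-1 cells SnxB raised 4 collagen genes at the adjusted p and lowered 1, against 0.916% and 0.564% of all genes. In shCdk8-2 cells it raised 5 and lowered 1, against 0.987% and 1.06% of all genes. Col9a3 was the gene that rose in all 3 lines: it stood at 53.6, 50.7 and 46.5 CPM in shCdk8-1 and at 23.1, 26.6 and 23.5 CPM in shCdk8-2 in SnxB, clear of the DMSO libraries, with log2 fold changes of 0.79 and 0.68 (adjusted p = 2.85e-05 and 0.000321). Col1a1 rose in both shCdk8 lines, to 21.2, 24.8 and 23.4 CPM in shCdk8-1 and 17.3, 17.9 and 16.6 CPM in shCdk8-2, by 0.48 and 0.80 on the log2 scale (adjusted p = 0.0222 and 0.00043). The call in shCdk8-1 was lost in 4 of 6 fits that left out 1 library. In cntrl cells, with 1.97, 0.974 and 1.03 CPM in SnxB, its difference of 0.76 did not pass (adjusted p = 0.193). Col9a1 rose by 0.30 and 0.32 in the shCdk8 lines (adjusted p = 0.00795 and 0.00738), calls lost in 1 of 6 such fits for shCdk8-1 and 2 of 6 for shCdk8-2. Col3a1 and Col6a1 rose by 0.19 and 0.21 in shCdk8-2 cells (adjusted p = 0.0223 and 0.0201), and the call of Col3a1 was lost in 4 and that of Col6a1 in 3 of 6 fits that left out 1 library. Col11a2 rose 2.75-fold in shCdk8-1 (adjusted p = 0.000888) and did not pass in shCdk8-2 (log2 difference 0.88, adjusted p = 0.086) or in cntrl (-0.33, adjusted p = 0.755). Col18a1 was the gene lowered in both shCdk8 lines, by 0.26 and 0.16 (adjusted p = 0.0017 and 0.047), and the second of these calls was lost in each of 6 fits that left out 1 library. Without the first shCdk8-1 library in DMSO, 3 members in place of 5 passed in shCdk8-1 cells. In shCdk8-2 cells, 2 in place of 6 passed without the first SnxB library, and 3 passed without the first or the third DMSO library.

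**Figure D5:**
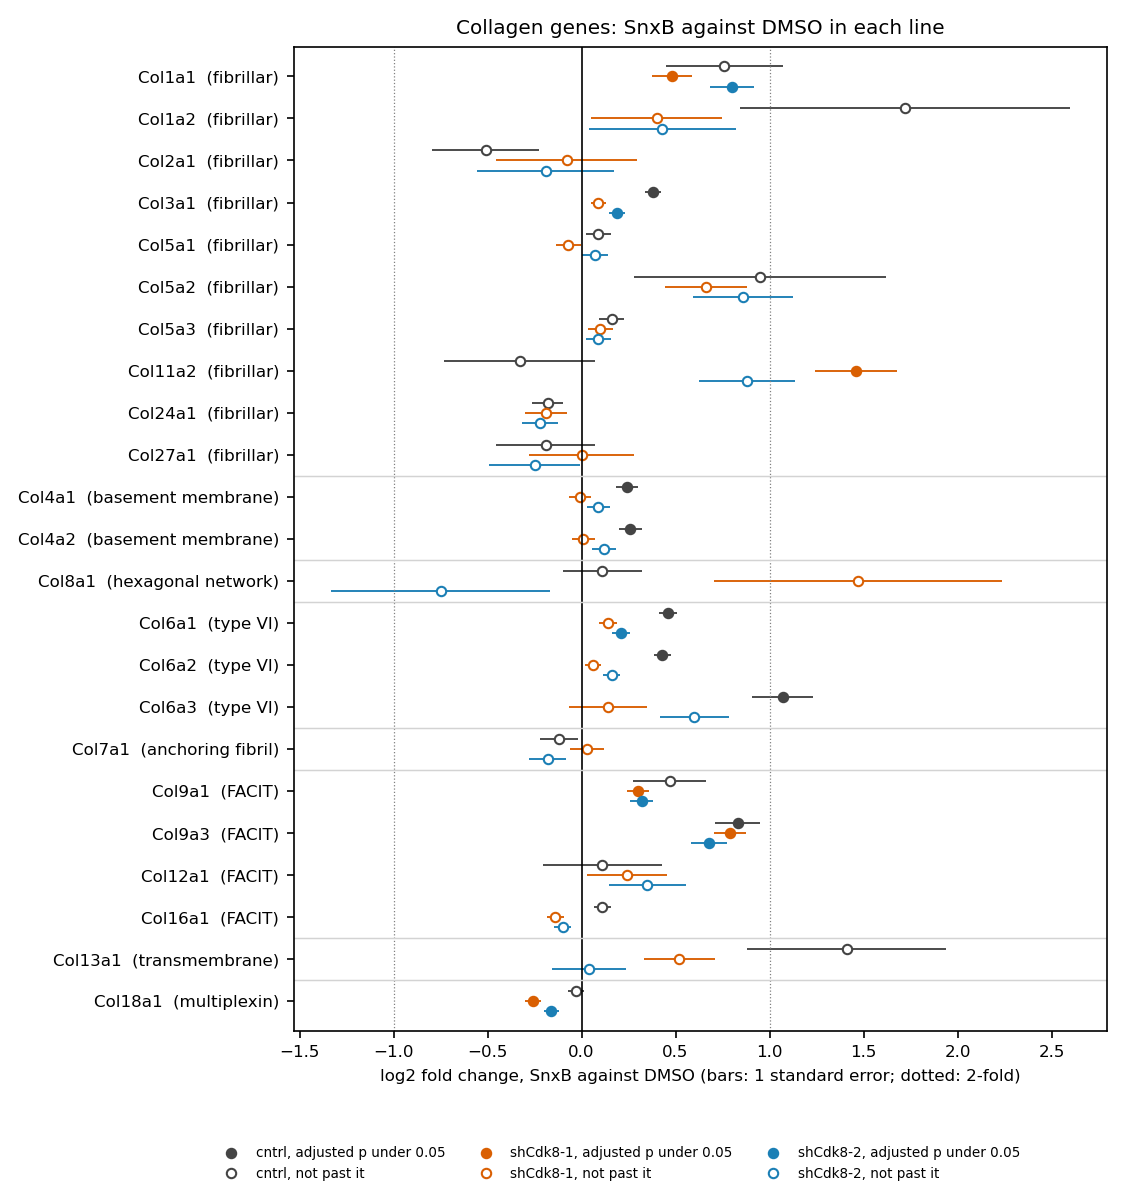
Points give the log2 fold change of each of the 23 tested collagen genes in SnxB against DMSO, in cntrl, shCdk8-1 and shCdk8-2 cells, with bars of 1 standard error and dotted lines at 2-fold. Filled points have an adjusted p under 0.05. For Col9a3 the 3 points lie at 0.83, 0.79 and 0.68, and for the type VI genes the cntrl points lie furthest to the right.

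Whether SnxB acted differently in the shCdk8 lines was tested with an interaction term. For shCdk8-1 against cntrl, 2 collagen genes had a smaller SnxB effect at the adjusted p, against 0.235% of all genes. These were Col6a2, with a difference in log2 fold change of -0.36 ± 0.0624 (SE, adjusted p = 0.0126), and Col3a1, with -0.30 ± 0.0599 (adjusted p = 0.0359). The call of Col3a1 was lost in 9 of 12 fits that left out 1 library, and that of Col6a2 in 1 of 12. In shCdk8-1 cells in SnxB, Col6a2 stood at 743, 672 and 708 CPM and Col3a1 at 1521, 1441 and 1512 CPM, and both overlapped their DMSO libraries. For Col6a1 the difference was -0.31 (adjusted p = 0.0556) and for Col6a3 it was -0.93 ± 0.263 (adjusted p = 0.237). For shCdk8-2 against cntrl, 0 of the 23 genes passed (0.0548% of all genes did) and 6 had an unadjusted p under 0.05 in edgeR. The share of all genes at the unadjusted threshold is not given here. Col11a2 went the other way, with 1.79 ± 0.464 for shCdk8-1 and 1.21 for shCdk8-2, and passed in neither (adjusted p = 0.16 and 0.8). DESeq2 called 0 collagen genes over 2-fold in either interaction. For Col9a3 the interaction gave -0.04 (95% interval -0.33 to 0.25) with shCdk8-1 and -0.15 (-0.45 to 0.16) with shCdk8-2.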

How the data were processed

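RNA of 18 E0771 samples was sequenced as 50 bp single-end reads. The authors trimmed reads with Trimmomatic, aligned them with STAR and counted them per gene with featureCounts 1.5.1, by strand, over exons of GENCODE M13 (GRCm38). The deposited values are raw read counts. Reads that matched several places or genes were not counted, so near-identical stretches lower a gene's value. Symbols and coordinates were taken from GENCODE M21 of the same build. In the files of shCdk8-2 libraries the headers repeat a replicate number, and the labels were used. Counts per library were 16452260 to 22664693, and no pair of libraries was identical.

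Counts were tested in edgeR 4.0.16 (limma 3.58.1, R 4.3.3) by the quasi-likelihood test with TMM scaling and 6 groups over all 18 libraries, after filterByExpr (minimum count 10, minimum total 15). P-values were adjusted by Benjamini-Hochberg over 12772 genes. A gene was called at an adjusted p under 0.05 and over 2-fold. The fit was tested on simulated data. DESeq2 1.42.0, other scalings and filters, a replicate block and fits without 1 library were alternatives. Exact intervals of count ratios cover counting error only. Tables and plots used Python 3.11.15, pandas 2.3.3, scipy 1.17.1 and matplotlib 3.10.9.

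The members, the 43 pathway genes and the marker lists were chosen with earlier results of these data known. Values in every library in DMSO are given for most members called in at least 1 of 10 comparisons. They are also given for the 6 highest per kilobase in cntrl cells in DMSO. For Col1a2, Col5a2, Col8a1 and Col13a1, some groups are given as sums or ranges. Library values in SnxB are given for some of these members, and other tested members fill out a class. Pathway genes are named where called in DMSO against cntrl. Serpinh1, Plod1, Crtap, Ddr2, Loxl4, Pcolce, P4ha2, P3h2 and Plod2 are further pathway genes named after their values were seen.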

Additional observations from a re-analysis of the deposited data

Results flagged for a closer look

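The effect of SnxB differed between the lines for 2 collagen genes, by the interaction term of edgeR's quasi-likelihood test. For Col6a2, a chain of type VI collagen, the log2 fold change with SnxB was 0.43 in cntrl cells and 0.06 in shCdk8-1 cells, a difference of -0.36 (adjusted p = 0.0126). For Col3a1, the chain of type III collagen, it was 0.38 in cntrl cells and 0.09 in shCdk8-1 cells, a difference of -0.30 (adjusted p = 0.0359). The call of Col3a1 was lost in 9 of 12 fits that left out 1 library, and that of Col6a2 in 1 of 12. In shCdk8-2 cells the differences from cntrl were -0.26 for Col6a2 and -0.20 for Col3a1, and neither passed the test (adjusted p = 0.221 and 0.463). Both comparisons use the same cntrl libraries.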

How the results depend on the processing

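Of 1518 alternative values for 112 results on single genes, 1444 kept their direction and their side of the threshold, 74 values of 18 results kept the direction and lost the threshold, and 0 changed direction. Without a fold threshold, the collagen genes called became 21 (shCdk8-1 against cntrl in DMSO), 19 (shCdk8-2 against cntrl in DMSO), 12 (shCdk8-2 against shCdk8-1), 21 and 19 (shCdk8-1 and shCdk8-2 against cntrl in SnxB), 7, 5 and 6 (SnxB in cntrl, shCdk8-1 and shCdk8-2 cells) and 2 (the interaction for shCdk8-1). For the lines compared in SnxB, the share of all genes at the adjusted p alone is not given here. Those counts are not read as a result about the family. Scaling by library totals gave 2 genes between the shCdk8 lines in place of 1, and no filter on low counts gave 1 gene, Col11a2, in the interaction for shCdk8-1 in place of 0. Fits without 1 library called 13 to 15 genes for shCdk8-1 and 11 to 12 for shCdk8-2 in DMSO, 12 to 14 and 11 to 13 in SnxB, 1 to 3 between the shCdk8 lines and 0 to 1 for SnxB in cntrl cells, with 0 without the first SnxB library. The main count of 11 for shCdk8-1 in SnxB lay below its range. Fits without 1 library tested 12926 to 13002 genes and not 12772, so the genes tested differ from those of the main fit. At the adjusted p alone, an alternative chosen after seeing the data, such fits gave 5 to 8 genes for SnxB in cntrl, 3 to 5 in shCdk8-1 and 2 to 5 in shCdk8-2 cells. A model with a replicate block called 13, 11, 1, 11, 11, 1, 1, 0, 0 and 0 genes over 2-fold, the counts without it, and 2 gene values lost the threshold (Col2a1, shCdk8-2 against cntrl in SnxB, and Col18a1, SnxB in shCdk8-2). Deviations of libraries with the same number correlated over 0.1 in 2 of 3 pairs for shCdk8-2 against cntrl in SnxB (0.0543 to 0.227). In the other comparisons no pair did. Since the headers of shCdk8-2 libraries repeat a replicate number, these values cannot exclude that the numbers pair the libraries. DESeq2 gave no adjusted p for 1 to 2 members in 4 comparisons. Where a call was lost, the cause was not tested. Depth limits the members under about 1 CPM, where a few counts make a value.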
